A study of Mus musculus with 9 samples.

Results

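Most of the genes described here encode histones, the proteins that package DNA, in mouse bone marrow-derived macrophages (BMDMs). They were found by symbol: 91 entries of the count table begin with Hist1h to Hist4h, H2af, H3f3 or H1f, and those with at least 10 reads summed over the 9 libraries were kept, 1 entry per symbol. This left 62 genes of the 53465 in the table, of which 21135 reached 10 reads. By symbol, 50 of the 62 are Hist genes, the replication-dependent class, and 12 are variant genes. Not all encode a histone: Hist3h2bb among the Hist genes and H3f3c among the variants are annotated as processed pseudogenes, and H3f3aos as an antisense RNA. The smallest counts inside the limit were those of Hist1h3h with 10 reads and Hist1h2ai with 14, and the largest outside it were those of Hist1h2br and Hist1h2ao with 8 each. Of the 29 entries left out, 14 had no read, and 2 were the processed pseudogenes H3f3a-ps1 and H3f3a-ps2, which the table lists under the symbol of H3f3a.

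BMDMs were grown from the bone marrow of male wild-type C57BL/6 mice (of the J substrain in the study's methods) for 5 to 10 days in medium with CSF1 at 50 ng/ml, and all 9 cultures share this background. Of these, 3 were left untreated (UNX), 3 received medium conditioned by pulmonary artery adventitial fibroblasts of control calves (CO-CM), and 3 received medium conditioned by fibroblasts of calves with pulmonary hypertension (PH-CM). Per the study's methods, each medium was a pool over fibroblast populations, so the 3 libraries of a group are not 3 calves, and bovine medium acts on mouse cells. The treatment time is given as 16 h in one label and 24 h in another, and the study's methods give a time between these. The labels do not tie a replicate to an animal, so p-values measure the spread between these libraries. In bulk RNA, fewer cells expressing a gene and less RNA per cell cannot be told apart.

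Replication-dependent histones are made in S phase, when new DNA has to be packaged, from genes that lie in clusters and mostly lack introns. Their mRNAs end in a conserved stem-loop bound by the protein SLBP instead of in a poly(A) tail, and they are degraded when replication stops. Variant histones are made throughout the cell cycle from dispersed genes with polyadenylated mRNAs and replace the canonical histones at particular sites. Some Hist genes also give polyadenylated transcripts when cells leave the cycle. The libraries were made with a kit that selects polyadenylated RNA, so that mRNAs ending at the stem-loop are measured only in part, and a change in a Hist gene can be one of its level or of its kind of 3′ end.

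The stem-loop was looked for in the annotated transcripts of the members (GENCODE M21, GRCm38), because its presence marks the class and the sequence after it shows how far the annotated transcript runs past the replication-dependent 3′ end. It was found in 38 of the 50 Hist genes and, among the variants, in H2afx alone. The same pattern occurs in 277 of 21884 protein-coding genes without a Hist symbol (1.27%), so a match describes the sequence and is not proof of a processed end. Transcripts are shown 5′ to 3′ in the sense of the mRNA, with the 16-base element in capitals and 5 bases on each side.
Hist1h1c: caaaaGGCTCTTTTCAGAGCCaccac
Hist3h2a: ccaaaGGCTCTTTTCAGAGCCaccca
Hist1h2bg: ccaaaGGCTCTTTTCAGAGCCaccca
Hist3h2ba: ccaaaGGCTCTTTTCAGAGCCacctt
Hist2h3c2: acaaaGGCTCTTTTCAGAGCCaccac
Hist1h4i: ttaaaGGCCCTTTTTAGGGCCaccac
Hist2h4: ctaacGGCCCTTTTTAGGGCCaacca
Hist1h3c: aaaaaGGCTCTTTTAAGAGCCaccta
Hist1h3g: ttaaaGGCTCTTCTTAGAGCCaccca
H2afx: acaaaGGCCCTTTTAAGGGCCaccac

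The Hist genes carried 8 distinct elements. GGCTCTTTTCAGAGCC occurred in 3 H1, 6 H2A, 7 H2B and 4 H3 genes, whereas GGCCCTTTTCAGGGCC occurred in 7 H4 genes. The annotated transcript went on after the element for 840 bases in Hist1h1c, 1643 in Hist3h2a, 155 in Hist1h2bg, 47 in Hist1h3g and 74 in Hist1h3c. A poly(A) signal (AATAAA or ATTAAA within the last 50 bases, after the element) stood at the end of 11 of the 38 Hist transcripts, those of Hist1h1c, Hist3h2a, Hist3h2ba, Hist1h4i and Hist2h4 among them. H2afx, whose transcript runs 822 bases past the element to such a signal, holds the sequences of both kinds of end. Hist1h2bc and Hist2h2be, whose annotated transcripts run 742 and 2192 bases past the stop codon, had no element in these transcripts. Hist1h2bc is annotated with 2 exons, and only transcripts were searched, so an element in its spliced-out sequence would be missed. Of the other Hist genes without an element, 8, Hist1h4k among them, have a transcript model that ends at the stop codon. No element could be found there, whatever the gene carries.

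Compared with untreated BMDMs, 13 Hist genes rose and 3 fell under PH-CM, and 11 rose under CO-CM. Of the variant genes, 4 rose and 5 fell under PH-CM, and 3 rose and 4 fell under CO-CM. A gene was called at a Benjamini-Hochberg FDR of at most 0.05 over all 21135 genes in edgeR's quasi-likelihood test and a fold change of at least 1.2. Over all genes tested, 20.2% were called higher and 21.4% lower under PH-CM, and 17.0% higher and 19.1% lower under CO-CM. The shares of the 50 Hist genes called higher, 26% and 22%, were thus near those of all genes, while those called lower, 6% under PH-CM, lay under them. However, 30 of the 50 held only 10 to 70 reads each, where a fall is hard to call. A negative log2 fold change was found in 24 of the 50 under PH-CM and in 19 under CO-CM. No Hist gene was called lower under CO-CM by edgeR's quasi-likelihood test, by its exact test or by DESeq2, and 0 had an unadjusted p under 0.05 in that direction. The median log2 fold change of the Hist genes was 0.10 under PH-CM and 0.53 under CO-CM, beside 0.05 and 0.03 over all genes, and that of the variants was -0.14 and 0.15. Scaling by the upper quartile turned the split of the variants to 5 higher and 3 lower under both media, while it moved the median of all genes by 0.158 under PH-CM and by 0.165 under CO-CM, and the Hist genes then split 13 to 2 and 15 to 0. Under a filter of more than 1 CPM (reads of a gene relative to library size) in at least 3 libraries, 6 Hist genes remained, of which 5 were called higher under each medium, beside 31.3% of all genes under PH-CM and 28.0% under CO-CM. Hist1h2bg, 1 of these 5, passed that filter only through the treated libraries, so that this count is given as a description.

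**Figure D1:**
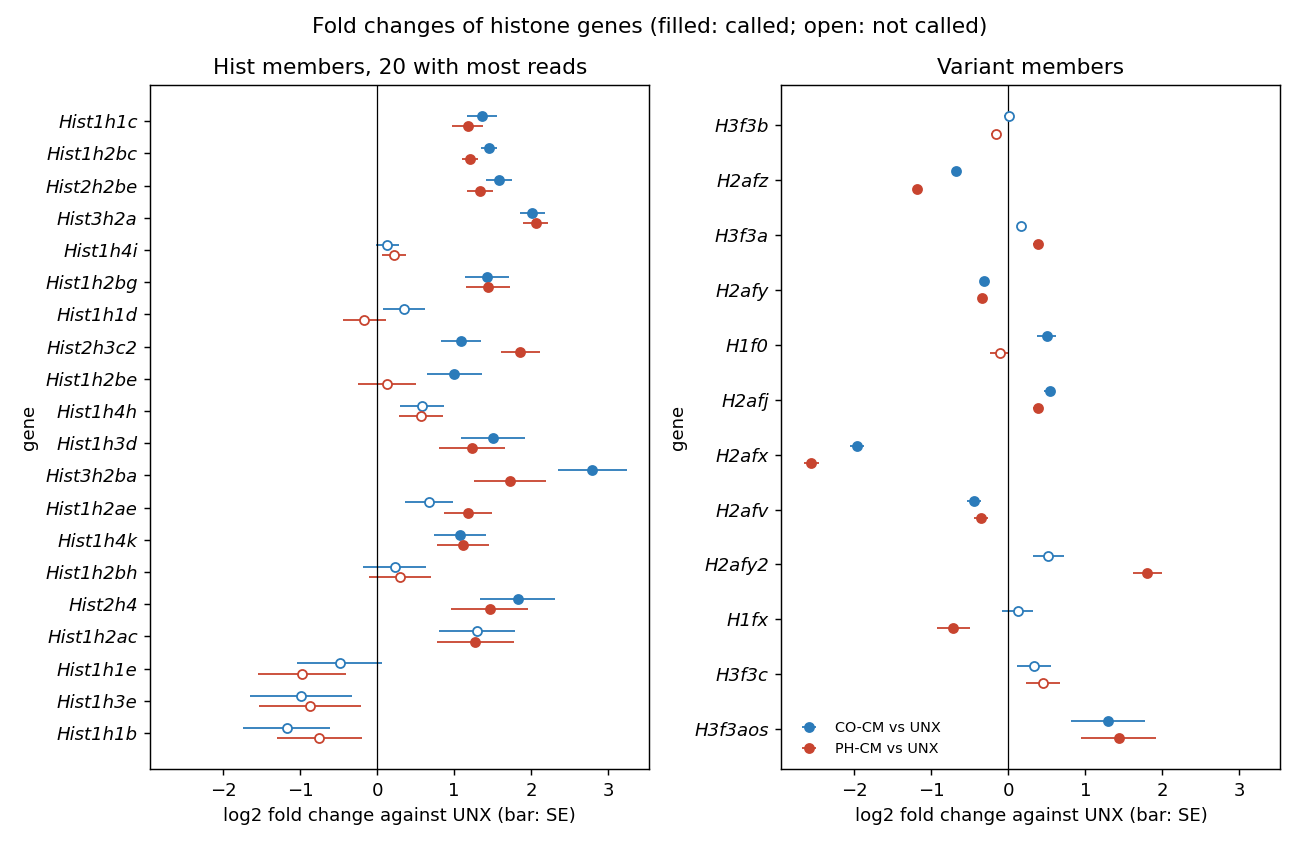
Log2 fold changes against untreated BMDMs (x axis, bars: standard error of the fit) for the 20 Hist genes with most reads (left) and the 12 variant genes (right), for CO-CM (blue) and PH-CM (red), with filled points for called genes. The 4 Hist genes at the top lie between 1.17 and 2.06 under both media, whereas H2afz and H2afx lie left of 0.

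The 20 Hist genes with most reads (71 to 54246) held 98.95% of the reads of the class, and 12 of them rose under PH-CM and 11 under CO-CM. Reads were summed over all groups, so a gene that rose could enter these 20 through its treated libraries, as Hist3h2ba with 24 reads in UNX and 158 under CO-CM, and a gene that fell could be left out. The other 30 held 10 to 70 reads each. Of these, 1 rose and 3 fell under PH-CM, and nothing is read from the difference between these groups of genes.

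Linker histone H1 binds the DNA between nucleosomes, and Hist1h1c (chr13:23738808-23740367, plus strand, 1 exon) encodes the H1 subtype H1.2. It held most reads of the class. Its levels were 33.0, 48.3 and 54.1 CPM in the UNX libraries, 84.9, 131.9 and 131.5 under CO-CM, and 79.9, 108 and 118 under PH-CM. All treated libraries lay above all untreated ones, and replicate 1 was the lowest of each group. Hist1h1c rose by 1.36 under CO-CM (log2 fold change, SE 0.20, edgeR FDR 6.88e-05) and by 1.17 under PH-CM (SE 0.20, edgeR FDR 0.000203). The other 4 H1 genes did not pass: Hist1h1d, with 0.700 ± 0.183 CPM in UNX, 0.900 ± 0.225 with CO-CM and 0.628 ± 0.118 with PH-CM (SD, n = 3 each), had log2 fold changes of 0.35 and -0.17 (edgeR FDR 0.350 and 0.678). Hist1h1e and Hist1h1b lay between -1.17 and -0.48 (edgeR FDR 0.118 to 0.543), and Hist1h1a, with few reads, had -1.38 and -0.62 (edgeR FDR 0.390 and 0.696).

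Among genes of the core histone H2B, Hist1h2bc (chr13:23684199-23692908, plus strand) and Hist2h2be (chr3:96221119-96223738, plus strand) were the most abundant. Hist1h2bc had 14.7, 20.04 and 18.9 CPM in UNX, 45.9, 53.3 and 48.1 under CO-CM, and 38.6, 43.4 and 41.8 under PH-CM. Its untreated libraries did not reach the treated ones, and its log2 fold changes were 1.45 under CO-CM (SE 0.10, edgeR FDR 7.51e-08) and 1.204 under PH-CM (SE 0.10, edgeR FDR 3.19e-07). Hist2h2be had 6.53, 10.3 and 8.55 CPM in UNX, 20.4, 31.2 and 24.5 under CO-CM, and 19.1, 24.5 and 20.7 under PH-CM. It was also apart from UNX in every treated library and rose by 1.58 (SE 0.17, edgeR FDR 4.51e-06) and 1.34 (SE 0.17, edgeR FDR 1.64e-05). Hist1h2bg rose by 1.42 and 1.44 (edgeR FDR 0.00108 and 0.000858) from 0.622 ± 0.156 CPM in UNX (SD, n = 3).

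**Figure D2:**
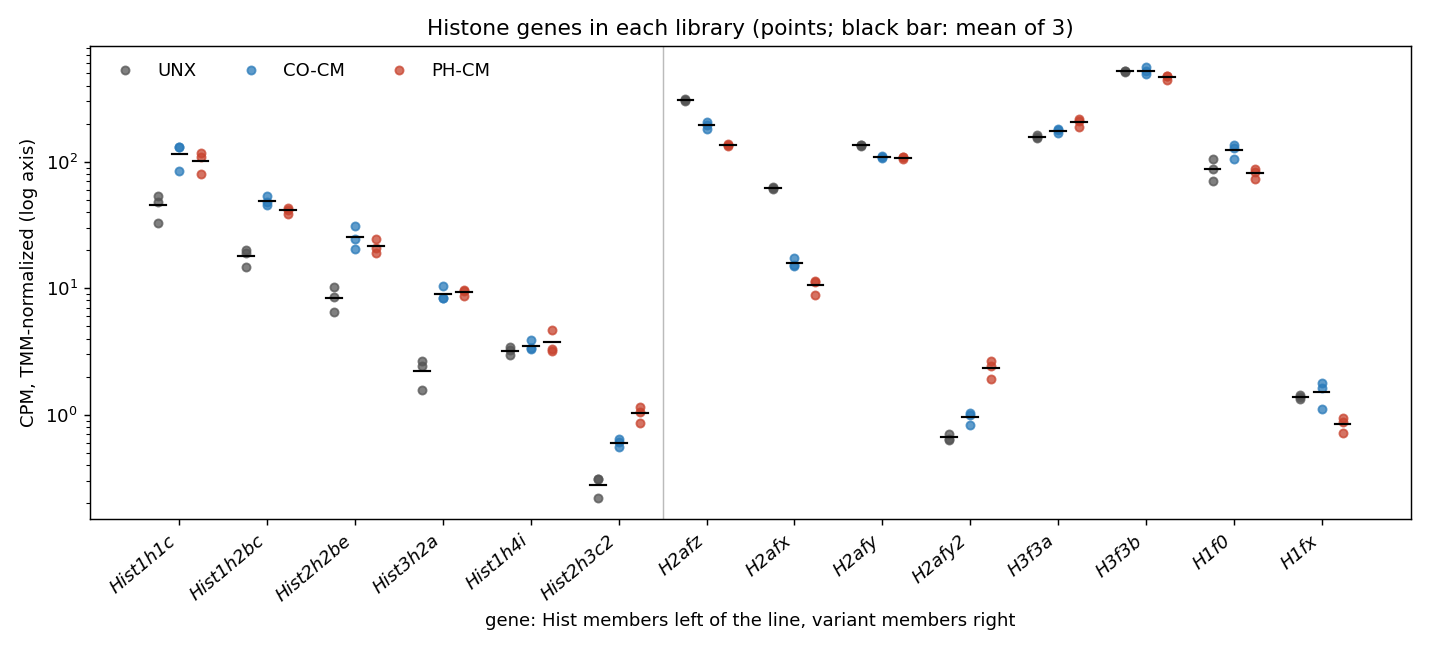
CPM after TMM normalization (y axis, log scale) of 14 histone genes in each library (points) with the mean of the 3 libraries of a group (black bars), untreated in grey, CO-CM in blue and PH-CM in red. The untreated points of Hist1h1c, Hist1h2bc, Hist2h2be and Hist3h2a lie under all treated ones, those of H2afz and H2afx above them, and H2afy2 is highest under PH-CM.

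The other H2B genes had few reads. Hist3h2ba (chr11:58948920-58949533, plus strand) had 0.0947, 0.134 and 0.0947 CPM in UNX, 0.494, 1.01 and 0.777 under CO-CM, and 0.176, 0.413 and 0.500 under PH-CM. Every treated library exceeded the untreated ones, and it rose by 2.79 under CO-CM (SE 0.44, edgeR FDR 0.000159) and by 1.73 under PH-CM (SE 0.47, edgeR FDR 0.00758). Hist1h2be, which overlaps Hist1h1e on the same strand, rose under CO-CM by 1.00 (edgeR FDR 0.0387), but not without UNX replicates 1 or 3 or CO-CM replicates 1 or 2 (edgeR FDR up to 0.136), and had 0.13 under PH-CM (edgeR FDR 0.828). Hist1h2bh had 0.23 with CO-CM and 0.30 with PH-CM (edgeR FDR 0.718 and 0.603).

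For H2A, the partner of H2B in the nucleosome, the main gene was Hist3h2a (chr11:58954685-58956830, plus strand, 1 exon), which overlaps Trim17 on the same strand and Gm44313 on the other, so that some reads could not be assigned or may belong to the other strand. Its levels were 1.58, 2.66 and 2.42 CPM in UNX, 8.31, 10.4 and 8.40 under CO-CM, and 8.64, 9.74 and 9.54 under PH-CM. The groups did not overlap with UNX, and it rose by 2.01 (SE 0.16, edgeR FDR 2.60e-07) and 2.06 (SE 0.16, edgeR FDR 1.51e-07). Hist1h2ae rose under PH-CM by 1.18 (edgeR FDR 0.00600) and had 0.67 under CO-CM (edgeR FDR 0.107). Hist1h2ac was at the threshold, with 1.28 under PH-CM (edgeR FDR 0.0497) and 1.30 under CO-CM (0.0505), and its call under PH-CM was lost without any of 7 libraries (edgeR FDR up to 0.159), the exceptions being UNX replicate 2 and CO-CM replicate 1. That call was also lost with DESeq2, by library size alone, without a filter and with only the 2 groups compared (FDR up to 0.0567). Under CO-CM the gene passed in 7 of 12 other settings (FDR 0.0243 to 0.0756) and without UNX replicate 2 or CO-CM replicate 1.

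H4 is the core histone that pairs with H3. Of its 12 genes, 3 rose under PH-CM and 2 under CO-CM, near the shares of all genes called higher (20.2% and 17.0%). Hist1h4i, the one with most reads, had 3.25, 3.41 and 2.96 CPM in UNX, 3.31, 3.87 and 3.36 under CO-CM, and 3.20, 3.34 and 4.69 under PH-CM. These libraries overlapped, and its log2 fold changes of 0.13 and 0.22 did not pass (edgeR FDR 0.550 and 0.266). Among the other settings, the gene passed under PH-CM only with length offsets and replicate numbers blocked together. Hist1h4k, with 53.4% of its 150-base windows also in another gene, rose by 1.08 with CO-CM and 1.11 with PH-CM (edgeR FDR 0.0209 and 0.0157), but the first call was lost without UNX replicates 1 or 2 or CO-CM replicate 1 (up to 0.0791) and the second without UNX replicate 2 or PH-CM replicate 2 (up to 0.0624). Hist2h4 rose by 1.82 under CO-CM (edgeR FDR 0.00799) and by 1.46 under PH-CM, where its libraries overlapped with UNX and the call was lost without UNX replicates 1 or 3 or PH-CM replicates 1 or 2 (edgeR FDR 0.0278, up to 0.117). Hist1h4h had 0.58 and 0.57 (edgeR FDR 0.130 and 0.126).

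Of the 10 genes of the core histone H3, 2 rose and 2 fell under PH-CM and 2 rose under CO-CM. These counts were near the shares of all genes, 20.2% higher and 21.4% lower under PH-CM and 17.0% higher under CO-CM. Hist2h3c2, of which 59.4% of the 150-base windows also occur in another gene, had 0.221, 0.309 and 0.308 CPM in UNX, 0.552, 0.608 and 0.639 under CO-CM, and 1.06, 0.858 and 1.16 under PH-CM. The 3 groups did not overlap, and it rose by 1.09 under CO-CM (SE 0.26, edgeR FDR 0.00391) and 1.86 under PH-CM (SE 0.25, edgeR FDR 3.42e-05). Hist1h3d rose by 1.503 (edgeR FDR 0.0102) and 1.23 (edgeR FDR 0.0295), the latter not without UNX replicates 2 or 3 or PH-CM replicate 3 (up to 0.153). Hist1h3e had -0.98 and -0.87 (edgeR FDR 0.275 and 0.320).

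The members called lower under PH-CM were named after their values were seen. Hist1h3g had 8, 28 and 4 reads in UNX, 6, 2 and 6 under CO-CM, and 0, 0 and 2 under PH-CM. Its call (edgeR FDR 0.0120) rested on UNX replicate 2 and was lost without it (edgeR FDR 0.107). Hist1h3c had 2, 10 and 20 reads in UNX, 4, 3 and 2 under CO-CM, and none under PH-CM. With a floor of 3 reads over the PH-CM group, it was at least 9.36-fold lower there than in UNX (edgeR FDR 0.00424). UNX replicate 3 held 20 of the 32 UNX reads, and without it the bound was 5.66-fold. With a floor of 6 reads, since both mates of a fragment are counted, it was 4.68-fold, and both settings were chosen after seeing the data. Hist1h2bj fell by 2.04 (edgeR FDR 0.0371), a call that was lost without any UNX replicate or PH-CM replicates 1 or 3 (up to 0.108). The call was also lost with upper-quartile scaling and with length offsets, with or without replicate numbers blocked (FDR up to 0.0646). In the other direction, Hist1h4m, of which 85.8% of the 150-base windows also occur in another gene, rose by 1.95 (edgeR FDR 0.0249), with 9 reads over the UNX libraries and 32 over those of PH-CM, and that call was lost without UNX replicates 2 or 3 or PH-CM replicate 2 (up to 0.0968).

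The Hist genes were also grouped by their annotated 3′ end, with levels that overlapped between the groups. The 11 with an element and a poly(A) signal after it held 62.4% of the Hist reads, 54.7% in Hist1h1c alone, with a median of 0.566 RPKM (reads scaled to gene length and library size, as deposited) over the 9 libraries, and 5 of them rose under each medium. The 27 with an element and no such signal held 3.15% of the reads, with a median of 0.0861 RPKM. In that group 5 rose and 3 fell under PH-CM, and 3 rose under CO-CM. The 12 without an element held 34.4%, nearly all in Hist1h2bc and Hist2h2be, with a median of 0.114 RPKM, and 3 of them rose under each medium. Since 8 of these 12 models end at the stop codon, they are no kind of 3′ end of their own. Of all genes tested, 20.2% rose and 21.4% fell under PH-CM, and 17.0% rose and 19.1% fell under CO-CM. Nothing is read from the counts of called genes in these small groups. Each of the 3 Hist genes called lower had an element without a poly(A) signal, and they held 41 to 63 reads. How much of each gene's RNA ended at the element was not measured.

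**Figure D3:**
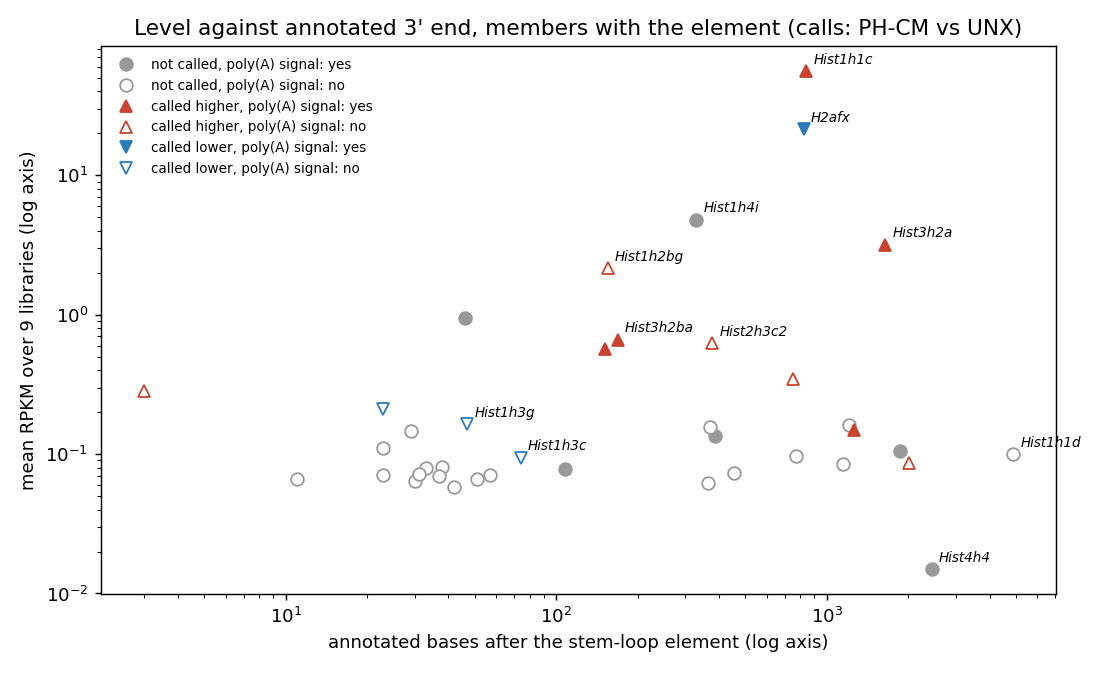
Mean deposited RPKM over 9 libraries (y axis, log scale) against the annotated bases after the stem-loop (x axis, log scale) for the 39 members with the element, filled where a poly(A) signal stands at the end, and with triangles for genes called higher (red) or lower (blue) under PH-CM against UNX. Hist1h1c and H2afx lie highest, at 840 and 822 bases after the element, and move in opposite directions.

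H2afx and H2afz, the H2A variants H2A.X and H2A.Z.1, fell most of the variant genes. H2A.X is phosphorylated around DNA breaks. H2afx (chr9:44334694-44336077, plus strand, 1 exon) had 61.5, 61.0 and 62.8 CPM in UNX, 15.1, 14.99 and 17.3 under CO-CM, and 11.5, 8.85 and 11.3 under PH-CM. The 3 groups did not overlap, and it fell by 1.96 under CO-CM (SE 0.091, edgeR FDR 1.61e-09) and by 2.55 under PH-CM (SE 0.094, edgeR FDR 1.08e-10). H2A.Z sits at promoters and enhancers and is exchanged there independently of replication. H2afz (chr3:137864487-137866922, plus strand) had 301, 309 and 316 CPM in UNX, 182, 195 and 205 under CO-CM, and 134, 135 and 139 under PH-CM, again without overlap. It fell by 0.67 under CO-CM (SE 0.052, edgeR FDR 2.29e-07) and by 1.18 under PH-CM (SE 0.053, edgeR FDR 6.80e-10).

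The other H2A variants moved less or in the other direction. H2afv, which encodes H2A.Z.2, had 35.4 ± 3.22 CPM in UNX, 26.0 ± 2.21 with CO-CM and 27.7 ± 2.64 with PH-CM (SD, n = 3 each), and fell by 0.45 and 0.36 (edgeR FDR 0.00107 and 0.00446). Without PH-CM replicate 1 the latter was -0.26, under the fold threshold, and with upper-quartile scaling it was -0.20 (FDR 0.0920). H2afy encodes macroH2A1, which carries a large extra domain and is known from silenced chromatin. H2afy fell from 135 ± 1.24 CPM in UNX to 109 ± 1.75 with CO-CM and 107 ± 2.00 with PH-CM (SD, n = 3 each), by 0.31 and 0.33 (edgeR FDR 5.85e-05 and 2.66e-05), and these small changes were under the fold threshold with upper-quartile scaling (-0.15 and -0.18). H2afj rose by 0.54 with CO-CM and 0.38 with PH-CM (edgeR FDR 2.55e-05 and 0.000392).

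H2afy2 encodes macroH2A2, the second macroH2A. Its levels were 0.647, 0.631 and 0.710 CPM in UNX, 1.00, 1.02 and 0.833 under CO-CM, and 1.91, 2.65 and 2.42 under PH-CM. The 3 groups stood apart, with PH-CM highest. It rose by 1.81 under PH-CM (SE 0.19, edgeR FDR 3.30e-06), while its 0.52 under CO-CM missed the threshold (SE 0.20, edgeR FDR 0.0537) and passed with replicate numbers blocked (FDR 0.0468). It also passed under 6 of the other 12 settings and without CO-CM replicate 3 or PH-CM replicate 1, with an FDR of 0.0128 to 0.0849 over the settings and up to 0.137 without a library. H2afy2 overlaps Aifm2 on the opposite strand, and no strand option is listed for the counting, so reads of both genes cannot be told apart there.

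H3.3 is encoded by H3f3a and H3f3b, which give the same protein from different mRNAs. H3f3b (chr11:116021912-116027962, minus strand) had the highest RPKM of all members, 177 in UNX, 173 under CO-CM and 156 under PH-CM (means of 3 libraries). Its levels were 521, 513 and 525 CPM in UNX, 491, 519 and 557 under CO-CM, and 440, 472 and 478 under PH-CM. The PH-CM libraries lay under all others, but the log2 fold change of -0.17 was below the fold threshold (SE 0.055, edgeR FDR 0.0248), and that under CO-CM was 0.01 (edgeR FDR 0.954). H3f3a (chr1:180800832-180813943, minus strand) had 153, 162 and 156 CPM in UNX, 170, 182 and 178 under CO-CM, and 189, 217 and 209 under PH-CM, in that order without overlap. It rose under PH-CM by 0.38 (SE 0.058, edgeR FDR 8.06e-05) and had 0.17 under CO-CM, below the fold threshold (edgeR FDR 0.0314).

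Both remaining genes of this symbol are members by name only. H3f3aos is an antisense RNA that overlaps H3f3a, and its calls (1.29 with CO-CM and 1.43 with PH-CM, edgeR FDR 0.0477 and 0.0262) rested on single libraries. The former was lost without any of 7 libraries, all but UNX replicate 2 and PH-CM replicate 1 (edgeR FDR up to 0.162), and the latter without UNX replicate 3 or PH-CM replicates 2 or 3 (up to 0.109). Without strand, reads cannot be told apart in the 168 bases that both genes share. H3f3c, a processed pseudogene, had 0.33 and 0.45 (edgeR FDR 0.262 and 0.114), and the latter passed with upper-quartile scaling and with length offsets, with or without the block (FDR from 0.0140).

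The H1 variants responded to CO-CM and PH-CM in their own way. H1f0 (chr15:79028450-79030504, plus strand) encodes H1.0, the linker histone of non-dividing and differentiated cells. It had 70.1, 105 and 87.2 CPM in UNX, 106, 137 and 128 under CO-CM, and 72.7, 87.3 and 82.7 under PH-CM. CO-CM libraries were highest, while those of PH-CM lay within the range of UNX. H1f0 rose by 0.50 under CO-CM (SE 0.13, edgeR FDR 0.00604) and had -0.11 under PH-CM (edgeR FDR 0.520). H1fx (chr6:87980421-87981637, minus strand) encodes H1.10. It fell under PH-CM by 0.71 (SE 0.21, edgeR FDR 0.0133), from 1.39 ± 0.0493 CPM in UNX to 0.845 ± 0.116 (SD, n = 3 each), a call that was lost without PH-CM replicate 2 (edgeR FDR 0.0564), and had 0.12 under CO-CM (edgeR FDR 0.686).

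Between PH-CM and CO-CM, the test called 1 Hist gene and 5 variant genes, 1 of the variants higher and 4 lower under PH-CM, beside 7.39% of all genes higher and 9.01% lower. H2afz (-0.51, SE 0.053, edgeR FDR 1.18e-05), H2afx (-0.59, SE 0.093, edgeR FDR 0.000447), H1f0 (-0.61, SE 0.13, edgeR FDR 0.00357) and H1fx (-0.84, SE 0.21, edgeR FDR 0.0119) were lower under PH-CM. The call of H1fx was lost without CO-CM replicate 3 or PH-CM replicate 2 (edgeR FDR up to 0.0625). H2afy2 was higher under PH-CM by 1.29 (SE 0.19, edgeR FDR 0.000226).

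Hist2h3c2 was the Hist gene called higher in PH-CM than in CO-CM libraries (0.77, SE 0.24, edgeR FDR 0.0345), a call that was lost without any CO-CM replicate or PH-CM replicates 1 or 3 (up to 0.129). No Hist gene was called lower in edgeR's quasi-likelihood test or in DESeq2, although 5 had an unadjusted p under 0.05 and the exact test of edgeR called 1. With replicate numbers blocked, 3 Hist genes were called, among them Hist1h2be (-0.92, FDR 0.0367) and Hist3h2ba (-1.08, FDR 0.0170), both lower under PH-CM. For the abundant Hist genes the differences between the media were -0.19 for Hist1h1c (edgeR FDR 0.587), -0.25 for Hist1h2bc (0.0984), -0.24 for Hist2h2be (0.367) and 0.04 for Hist3h2a (0.895), and their libraries under both media lay above UNX. With replicate numbers blocked, the FDR was 0.00427 for Hist1h1c (-0.18), 0.00172 for Hist1h2bc (-0.25) and 0.00918 for Hist2h2be (-0.23), which were kept from a call by the fold threshold alone. In each of the 3 pairs of libraries, these 3 genes were lower under PH-CM. A missed threshold does not show that the media act alike.

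Summed over the class, the 50 Hist genes had 64.7, 90.5 and 93.6 CPM in UNX, 171, 241 and 226 under CO-CM, and 158, 197 and 204 under PH-CM. Every treated library lay above every untreated one, by 2.56 times on average under CO-CM and 2.25 times under PH-CM. The 12 variants summed to 1301, 1357 and 1348 CPM in UNX, 1137, 1225 and 1263 under CO-CM, and 1017, 1096 and 1097 under PH-CM. With TMM scaling these sums were lower in every treated library, at 0.905 and 0.801 of UNX. Upper-quartile scaling moved the median log2 fold change of all genes up by 0.165 under CO-CM and 0.158 under PH-CM. The former exceeds the drop in the CO-CM sum, whose direction thus depends on the scaling. The latter is smaller than the drop under PH-CM. The share of member reads that fell on Hist genes, which scaling does not change, went from 5.83% ± 0.95 in UNX to 14.9% ± 1.7 with CO-CM and 14.8% ± 1.2 with PH-CM (SD, n = 3 each). These are descriptions with no test, and 1 gene weighs heavily in each: without Hist1h1c and H3f3b the shares were 4.42%, 12.3% and 12.2%. In deposited RPKM, which weighs short genes more, they were 10.2%, 24.3% and 25.0%.

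**Figure D4:**
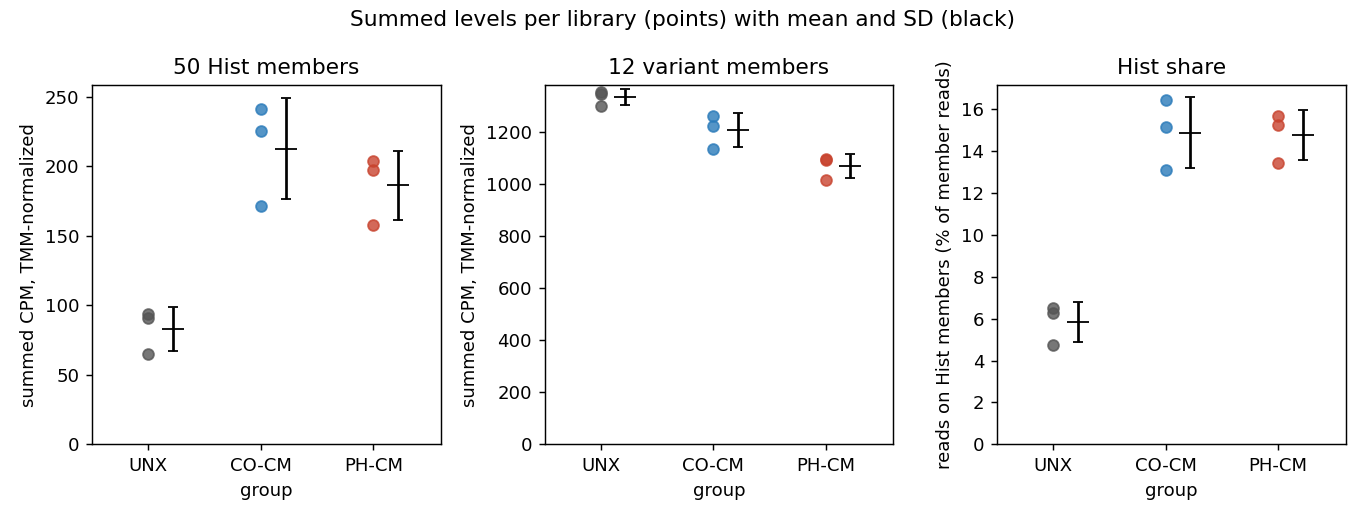
Summed CPM of the 50 Hist genes (left) and of the 12 variant genes (middle), and the percentage of member reads on Hist genes (right), per library (points) with mean and SD of 3 libraries (black). Hist sums rise from at most 93.6 CPM in untreated libraries to at least 158 in treated ones. Variant sums are highest in untreated libraries with the TMM scaling used here, and their difference from CO-CM depends on that scaling.

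The sums were also split by histone type. H1 genes, of which Hist1h1c made up nearly all, summed to 46.3 ± 11.2 CPM in UNX, 117 ± 27.2 with CO-CM and 103 ± 19.7 with PH-CM (SD, n = 3 each). H2B genes summed to 28.2 ± 4.73, 78.3 ± 9.91 and 65.9 ± 4.91, and H2A genes to 2.77 ± 0.62, 9.94 ± 1.28 and 10.3 ± 0.41. H4 genes summed to 4.30 ± 0.16, 5.45 ± 0.20 and 5.53 ± 0.66, and H3 genes to 1.34 ± 0.11, 1.63 ± 0.07 and 1.71 ± 0.32. Both sums were also higher in every treated library than in UNX. Most H3 genes went the other way, however. Of these 10, 8 had a negative log2 fold change under PH-CM and 7 under CO-CM, with medians of -1.93 and -1.20. The H3 genes called higher, under both media, were Hist2h3c2 and Hist1h3d. Per length, Hist1h1c reached 73.4 RPKM under CO-CM, above H1f0 (53.3) and H2afx (11.3), whereas in UNX it had 29.2 beside 38.6 and 45.1. Among variants the H3.3 genes stayed at 678 ± 4.2, 700.1 ± 36.9 and 670.1 ± 34.6 CPM, and the H2A variants fell to 383 ± 15.1 and 318 ± 5.5 from 568 ± 12.5 CPM.

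Promoters of the members were read from RefSeq (GRCm38.p6, 250 bases before to 50 after the annotated start), to show what sequence the members that changed have at their start. Of the 62 members, 54 were matched, 44 Hist and 10 variant genes. A CCAAT box (CCAAT, either strand) stood in 81.8% of Hist and 60.0% of variant promoters, beside 37.9% of all 27025 in the table. TATAAA on the sense strand stood in 54.5%, 10.0% and 8.9%, and an E2F site (TTTCCCGC, TTTCGCGC, TTTGCCGC or TTTGGCGC, either strand) in 18.2%, 0.0% and 2.3%. These 3 motifs were the only ones searched, matches of different motifs can share end bases, and a match is a description of the sequence. Some H2A and H2B genes lie side by side on opposite strands with overlapping windows, such as Hist1h2bj and Hist1h2ag. A CCAAT box or E2F site there can count for both genes, so the Hist promoters are not all separate sequences. The promoters of Hist1h1c and Hist3h2a, which rose, Hist3h2ba, which rose most under CO-CM of the 20 most-read Hist genes, and H2afz, which fell, are shown 5′ to 3′ in the sense of the gene, with these motifs in capitals.
Hist1h1c, chr13:23738557-23738856, plus strand: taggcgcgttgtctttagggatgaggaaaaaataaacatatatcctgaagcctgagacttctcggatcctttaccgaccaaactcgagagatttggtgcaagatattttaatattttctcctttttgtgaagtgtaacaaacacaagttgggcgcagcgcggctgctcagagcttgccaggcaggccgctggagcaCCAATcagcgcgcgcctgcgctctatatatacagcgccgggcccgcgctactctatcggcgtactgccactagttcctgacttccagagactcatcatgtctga
Hist3h2a, chr11:58954435-58954734, plus strand: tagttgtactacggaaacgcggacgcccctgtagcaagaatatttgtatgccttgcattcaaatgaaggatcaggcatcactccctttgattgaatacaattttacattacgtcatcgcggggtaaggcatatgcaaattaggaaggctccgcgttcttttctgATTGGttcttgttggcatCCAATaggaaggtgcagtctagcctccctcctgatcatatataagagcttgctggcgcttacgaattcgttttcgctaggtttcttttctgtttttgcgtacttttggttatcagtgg
Hist3h2ba, chr11:58948661-58948960, plus strand: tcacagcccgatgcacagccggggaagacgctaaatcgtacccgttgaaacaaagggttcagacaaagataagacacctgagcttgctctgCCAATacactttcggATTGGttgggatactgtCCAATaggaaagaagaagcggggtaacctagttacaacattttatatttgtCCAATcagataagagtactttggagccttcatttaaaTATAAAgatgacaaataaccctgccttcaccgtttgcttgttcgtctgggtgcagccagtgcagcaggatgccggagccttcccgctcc
H2afz, chr3:137864237-137864536, plus strand: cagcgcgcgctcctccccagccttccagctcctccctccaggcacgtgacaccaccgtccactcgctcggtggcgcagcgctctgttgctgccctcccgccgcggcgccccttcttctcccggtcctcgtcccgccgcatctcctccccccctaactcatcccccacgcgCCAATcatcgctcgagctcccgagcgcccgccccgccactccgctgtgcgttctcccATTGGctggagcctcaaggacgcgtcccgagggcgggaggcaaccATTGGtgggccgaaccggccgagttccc

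These windows held 1, 2, 4 and 3 CCAAT boxes, in that order, and TATAAA stood in that of Hist3h2ba alone. Of the 13 Hist genes called higher under PH-CM, Hist1h4k and Hist1h4m held no CCAAT box in this window, and Hist1h2bc, Hist2h2be and Hist2h4 were not matched.

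The genes that serve histone production were read from 4 lists, of which 64 genes were tested in the same fit. Of all genes tested, 21.4% were called lower under PH-CM and 19.1% under CO-CM. With the filter of more than 1 CPM in at least 3 libraries, these shares were 31.7% and 28.9%. The 23 S phase genes fell under both media without exception, with a median of -2.51 under CO-CM and -3.19 under PH-CM. Pole, the catalytic subunit of DNA polymerase epsilon, had log2 fold changes of -3.06 and -4.30, Rrm2, a subunit of ribonucleotide reductase, -3.13 and -4.25, and Mcm5, part of the replicative helicase, -3.17 and -4.23 (edgeR FDR 5.47e-11 to 1.08e-08). The 10 genes of replication-coupled histone supply fell too, with medians of -1.71 and -1.94. Asf1b, a chaperone of new H3 and H4, had -2.89 and -3.68, Mcm2, which also binds histones at the fork, -2.92 and -3.49, and Chaf1a, the large subunit of the assembly factor CAF-1, -2.59 and -2.87 (edgeR FDR 1.57e-11 to 7.14e-10). The plot of gene lists sets these beside the Hist genes, of which 13 rose and 3 fell under PH-CM and 11 rose under CO-CM.

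**Figure D5:**
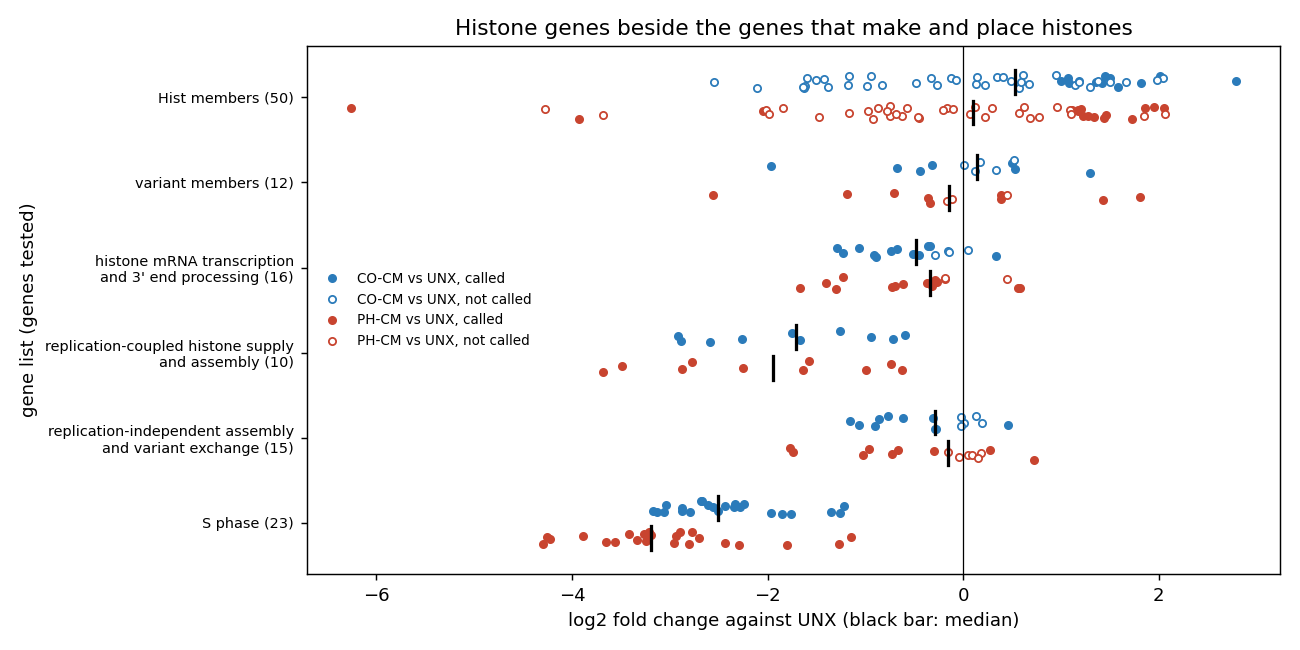
Log2 fold changes against untreated BMDMs (x axis) of the Hist and variant genes and of 4 gene lists (y axis, number of genes tested), CO-CM in blue and PH-CM in red, filled where called, with black bars at the medians. The S phase genes lie between -4.30 and -1.14 under both media, while the Hist genes spread on both sides of 0. The leftmost Hist gene is Hist1h3c, whose fitted value depends on the prior count because it had no PH-CM read.

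Of 16 genes for histone mRNA transcription and 3′ end processing, 11 fell and 2 rose under PH-CM, and 11 fell and 1 rose under CO-CM, with medians of -0.34 and -0.48. The shares called higher lay under those of all genes (20.2% under PH-CM and 17.0% under CO-CM). The shares called lower lay above those of all genes (21.4% and 19.1%). With upper-quartile scaling, 7 of the 16 fell and 3 rose under PH-CM, and 9 fell and 1 rose under CO-CM. Slbp, whose protein binds the stem-loop, fell from 57.8 CPM in UNX to 24.6 under CO-CM and 23.4 under PH-CM, by 1.23 and 1.30 (edgeR FDR 3.91e-09 and 1.41e-09). Lsm11, a protein of the U7 particle that directs the cut after the stem-loop, fell by 0.91 and 1.40, and Cstf2, a cleavage factor, by 1.29 and 1.67. Lsm10, the partner of Lsm11, rose by 0.34 and 0.59 (edgeR FDR 0.00199 and 1.60e-05). Slbp and Lsm11 fell in the libraries in which the summed Hist level was higher, and their part in the Hist values was not tested.

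Of 15 genes for replication-independent assembly and variant exchange, 7 fell and 2 rose under PH-CM, and 9 fell and 1 rose under CO-CM. Here too the shares called higher lay under those of all genes (20.2% and 17.0%), and the shares called lower above them (21.4% and 19.1%). With upper-quartile scaling, 6 of the 15 fell and 3 rose under PH-CM, and 6 fell and 3 rose under CO-CM. Anp32e, a chaperone that removes H2A.Z, fell by 1.06 under CO-CM and 1.73 under PH-CM, and Nap1l1, a chaperone of H2A and H2B, by 1.16 and 1.78 (edgeR FDR 1.91e-11 to 8.41e-09). Ruvbl1, a subunit of the complexes that exchange H2A.Z, fell by 0.77 and 1.02. Hira, the H3.3 chaperone, fell by 0.29 and 0.30 (edgeR FDR 0.0243 and 0.0177), close to the fold threshold. The shift of the median of all genes with upper-quartile scaling, 0.165 under CO-CM and 0.158 under PH-CM, would take both under it. Daxx, which also places H3.3, had 0.01 and 0.09, and Ubn2, a partner of Hira, rose by 0.46 and 0.73.

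Libraries held 62017933 to 84314201 reads counted on genes, and among counts under 20, 81.4% to 83.8% per library were even, as when both mates of a fragment add a read, so that low counts stand for fewer fragments. All 8 macrophage markers were present, with sums of 12040 to 12785 CPM in UNX, 18747 to 19749 under CO-CM and 20723 to 22381 under PH-CM. Lyz2 made up most of that rise, from 7010 to 7661 CPM in UNX to 12379 to 15475 in treated libraries, and C1qa was lower under CO-CM (145 to 167 CPM) than in UNX (272 to 294). Itgam and Fcgr1 had lower means with CO-CM than in UNX. Of 6 fibroblast markers all were detected, with sums of 200 to 254 CPM in UNX, 265 to 314 under CO-CM and 246 to 331 under PH-CM, mostly Col1a1 and Col1a2. Of the neutrophil markers, Ly6g was at 0. Lymphocyte markers summed to at most 0.178 CPM and erythroid markers to at most 0.267. The neutrophil sums were 1.499 to 2.15 CPM in UNX, 2.76 to 3.62 under CO-CM and 2.47 to 3.53 under PH-CM. The macrophage and neutrophil sums, like the Hist sums, were higher in every treated library than in UNX, and the fibroblast sums in every CO-CM library, while those of PH-CM and UNX overlapped. Within each same-numbered pair, though, the fibroblast sum was higher in the PH-CM than in the UNX library. The part of these lists in the histone values was not tested.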

How the data were processed

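RNA of 9 BMDM cultures (UNX, CO-CM and PH-CM, 3 each) was sequenced from libraries of polyadenylated RNA. Per the labels and the study's methods, the authors used AfterQC for trimming, STAR for alignment to GRCm38, and counted reads on exons per gene with featureCounts 1.6.2, and the deposited table of counts holds whole reads. The authors also deposited RPKM values, used here only to compare levels between genes and in an alternative class sum. The methods list no option for strand, read pairs or multi-mapping reads. Deposited tables of the authors' own comparisons (log2 fold changes, p-values and FDR from edgeR) were not used. Coordinates are GRCm38, and transcripts were read from GENCODE M21.

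The 62 members, the 4 gene lists and the cell markers were chosen with earlier results of these data known. Genes with at least 10 reads over the 9 libraries (21135) entered a single fit in edgeR 4.0.16 (R 4.3.3), with TMM factors, a quasi-likelihood F-test, Benjamini-Hochberg adjustment over all genes, and calls at FDR 0.05 and fold 1.2. CPM values use the TMM library sizes. DESeq2 1.42.0 and the other settings of the closing section were alternatives. With 3 libraries against 3, an exact permutation test cannot go below p = 0.1, so none is given for the class sums. Genes named are the 12 variants, the 20 Hist genes with most reads and, of each list, the 3 with the largest changes among genes called at a fold of at least 2, and others were named after their values were seen. The fit was tested on simulated data.

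The replicate numbers shared by the groups paired the libraries: deviations from the group means correlated at 0.314 to 0.525 between same-numbered libraries. The paired values are given where they change a call. No pair of libraries agreed within sampling noise. Depth was 62017933 to 84314201 counts per library.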

Additional observations from a re-analysis of the deposited data

Results flagged for a closer look

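The pseudogene H3f3a-ps1, left out of the members because the table lists it under the symbol of H3f3a, had 1684 reads in all and was looked at because it is data outside the comparisons that lay above the untreated level. It had 2.30 ± 0.12 CPM in UNX with a highest library of 2.43, 2.82 ± 0.18 CPM under CO-CM with a lowest library of 2.62, and 2.999 ± 0.155 CPM under PH-CM with a lowest library of 2.85 (SD, n = 3 each). No 150-base window of its annotated sequence occurs unchanged in another gene (0.0%). Only exact matches were counted, so this cannot tell reads of the pseudogene from reads of H3f3a that align there with mismatches. Which gene these reads come from was not tested.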

How the results depend on the processing

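Counts of called Hist genes were 11 to 16 (PH-CM) and 10 to 12 (CO-CM) when each library was left out, and those of variant genes 7 to 9 and 6 to 8 (4 to 6 between the media). With the CPM filter, 5 Hist genes were called for each medium, of 6 tested. At a fold of 2, variant genes called were 4 (PH-CM), 2 (CO-CM) and 1 between the media, and genes of the 4 lists were 35 under CO-CM and 5 between the media. The Hist count between the media, 1, was 2 with the exact test, 0 with the CPM filter, 3 with the replicate block, 3 with length offsets and the block, 0 at a fold of 2, and 0 to 2 when libraries were left out. The replicate block alone changed no member's call against UNX but that of H2afy2. Together with length offsets it also brought a call for Hist1h4i under PH-CM.

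Upper-quartile scaling moved the median log2 fold change of all genes by 0.158 (PH-CM) and 0.165 (CO-CM) and the share of calls that were higher from 48.5% to 62.1% and from 47.2% to 64.7%. Variant genes then split 5 higher to 3 lower under both media. The ratio of variant sums to UNX was 0.836 under CO-CM and 0.721 under PH-CM with RPKM, and 0.842 and 0.744 without H3f3b. Hist shares were 10.2%, 24.3% and 25.0% with RPKM (UNX, CO-CM, PH-CM), and 4.42%, 12.3% and 12.2% without the top gene of each class. The cause of these shifts was not tested. Normalization cannot change a share of reads.

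Uncalled log2 fold changes near 0 changed sign. H1f0 under PH-CM was 0.0450 with upper-quartile factors, and H3f3b under CO-CM was -0.0249 by library size. Between the media, Hist1h2bg was -0.0075 with the replicate block. Hist1h4h was 0.0118 by library size, 0.1652 with length offsets and 0.1543 with offsets and block. Hist1h2ac was 0.0052, 0.0125 and 0.0540 in the same order, and 0.0263 with the block alone. With libraries left out, H1f0 ranged from -0.2492 to 0.0397 and Hist1h2be from -0.0823 to 0.4586 under PH-CM. Under CO-CM, H3f3b ranged from -0.0420 to 0.0490, H1fx from -0.0109 to 0.2993 and Hist1h2bh from -0.0803 to 0.4937. Between the media, the ranges were -0.1238 to 0.3758 for H3f3aos, -0.0128 to 0.1546 for Hist3h2a, -0.1041 to 0.2046 for Hist1h4i, -0.2696 to 0.2159 for Hist1h2bg, -0.1646 to 0.1603 for Hist1h4h, -0.0909 to 0.2058 for Hist1h4k, -0.1465 to 0.3782 for Hist1h2bh, -0.3145 to 0.2759 for Hist1h2ac and -0.3229 to 0.4835 for Hist1h3e.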
